A study of Mus musculus with 2 samples.

Results

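The cells described here are early neutrophil progenitors with low S100a8, found in 2 single-cell RNA libraries of mouse Lineage- cKit+ bone marrow. They were chosen by a rule on their own transcript counts, and numbered 1143 of 25928 deposited barcodes, 762 in the control library and 381 in the knockout library. A barcode was kept if it had at least 1000 genes and under 10% of its unique molecular identifiers (UMIs, 1 per captured RNA molecule) from mitochondrial genes, which left 8003 control and 6080 knockout barcodes. Kept barcodes entered a neutrophil progenitor pool if Elane made up at least 0.568% of their UMIs (the 75th percentile of kept control barcodes), Cebpe had at least 1 UMI, F13a1 had at most 2 UMIs, and Camp, Ngp, Ltf and Lcn2 together stayed under 0.05% of UMIs. The pool held 1524 control and 778 knockout cells, and the members were those whose S100a8 share of UMIs lay below the median of the control cells of the pool, 0.0327%. The remaining 762 control and 397 knockout cells of the pool are called S100a8-high cells.

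Control cells were from Trsp f/f mice and knockout cells from mice that also carry Mx1-Cre (Trsp f/f:Mx1-Cre), all C57BL/6, with marrow taken from femora and tibiae. Both genotypes received 3 injections of 500 µg of pI-pC, a synthetic RNA duplex that raises interferon and so switches on Mx1-Cre. The series record puts the injections at 7 weeks after birth, without making clear whether they began or ended then, and the collection 9 weeks after the last one. Mx1-Cre acts in many interferon-responsive cells and not only in blood cells, and the floxed allele carried by both genotypes stays intact without Cre. Sorted cells were stored frozen and thawed before the libraries were made. There was 1 library per genotype, and the sources used here do not give the number of mice in each. Differences between genotypes therefore have neither replicates nor a test, and every interval is a 95% interval that covers counting error only.

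Neutrophils arise from granulocyte-monocyte progenitors through promyelocytes, which make the primary (azurophil) granule proteases under the control of Cebpa, Gfi1 and Cebpe, and later stages switch to secondary granule proteins and to the calcium-binding proteins S100a8 and S100a9. Trsp encodes the transfer RNA that inserts selenocysteine, the selenium-containing amino acid at the active site of glutathione peroxidases and thioredoxin reductases, and the mRNAs of several selenoproteins are degraded when their UGA codon is not read as selenocysteine. NRF2 is a transcription factor that is released by oxidative and electrophilic stress and switches on genes of glutathione synthesis, cystine uptake, NADPH supply and iron storage.

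One regulatory sequence is shown, that of Gclm, the modifier subunit of glutamate-cysteine ligase. Gclm was among the 12 measured genes highest in knockout over control members. It was also the only 1 of 5 searched NRF2 targets at least 1.5-fold higher there that held the motif described next. The stretch lies upstream of the RefSeq start of Gclm on the plus strand (GRCm38.p6 chr3:122245363-122245491), and the capitals mark the only match in the promoter window to TGACNNNGC, the core of the antioxidant response element that NRF2 binds, here on the reverse strand and starting 134 bases before the start site.
Gclm: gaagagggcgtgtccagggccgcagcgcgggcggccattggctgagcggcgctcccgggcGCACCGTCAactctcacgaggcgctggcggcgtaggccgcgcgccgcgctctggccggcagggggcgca
The motif was searched on both strands of windows of 300 bases, from 250 before to 50 after each start, and 4071 of 32851 RefSeq promoters (12.4%) held it. The windows of Slc7a11, Ftl1, Blvrb and Gstm1, other NRF2 targets that were at least 1.5-fold higher in knockout members, did not hold these letters, and Gclc and Abcc1 were not searched. Of 12 searched targets measured at under 1.5-fold, 5 held them (G6pdx, Mgst1, Pgd, Prdx1 and Blvra). A match is a description of the sequence only.

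The members carried the label's markers. All 4 of Elane (neutrophil elastase), Ms4a3 (a membrane protein of granulocyte-monocyte progenitors), Prss57 (a granule serine protease) and Cebpe (a granulocyte transcription factor) were above 20 counts-per-million (CPM, UMIs of a gene in 1000000 UMIs of the cells) in both libraries. Ms4a3 stood at 1523 CPM in control and 1436 in knockout members, Prss57 at 356 and 326, and Cebpe at 210 and 195. Elane and Cebpe were used by the rule, and Elane stood at 9627 and 8451 CPM. Of 7 T or NK cell markers, Cd3e, Cd3g, Ncr1 and Klrb1c had 0 UMIs in the members of both libraries, and the list summed to 0.44 and 0.53 CPM. All 8 erythroid markers had UMIs and together reached 7.02 and 4.67 CPM, and 8 stem cell markers summed to 31.5 and 36.2 CPM against 174 and 192 in the kept barcodes outside the pool. The 10 monocyte markers summed to 863 and 906 CPM, of which Ly6c2, a surface antigen shared with neutrophil progenitors, made up 750 and 795. The 8 basophil and mast cell markers summed to 197 and 218 CPM, against 803 and 668 in the kept barcodes outside the pool. Dendritic cell markers summed to 56.4 and 34.1 CPM, lymphoid progenitor markers to 26.8 and 38.3, and megakaryocyte markers to 15.0 and 14.1.

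S100a8 itself was at 0 UMIs in 36.4% of control and 27.8% of knockout members, and no member had more than 12. Values next to the S100a8 threshold lay close together, since the highest member had an S100a8 share of 0.0327% in each library and the lowest S100a8-high cell 0.0327% in control and 0.0331% in knockout. The members were deeply sequenced, with a median of 23280 UMIs and 4509 genes per cell in control and 29122 UMIs and 5255 genes in knockout. Mitochondrial UMIs had a median of 3.79% and 4.52%. Depth and the mitochondrial share therefore differ in the same direction between the libraries, and their part in the results below was not tested. Scrublet, a doublet caller, marked 9 control and 4 knockout members, which stayed in. The libraries shared 39 barcode sequences, of which 11 were kept and 0 were members.

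Neutrophil granule transcripts were also counted in barcodes of another lineage. Whether they came from RNA free in the suspension or from mixed barcodes was not tested. In barcodes with lymphoid markers, which should lack neutrophil granule genes, Mpo was detected in 91.3% of 46 such control barcodes and in 100% of 25 knockout ones, and Elane in 63.0% and 56.0%, at median depths of 21550.5 and 25968 UMIs. Their Elane level was 364 and 361 CPM, against 9627 and 8451 in the members. Shares of members with a UMI are therefore given beside these, and levels are compared by CPM.

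The members made up 9.52% of kept control barcodes (8.89 to 10.2) and 6.27% of kept knockout barcodes (5.67 to 6.91), a log2 ratio of −0.60 (−0.77 to −0.43). The gap opened at the Elane step of the rule, which 25% of kept control barcodes passed by construction and 16.1% of knockout barcodes passed. Elane was also lower in knockout barcodes outside the pool (log2 ratio −0.35), and the part of this difference in the share was not tested. With Elane at the 90th percentile the log2 ratio of member shares was −1.57. In the other settings tried it lay between −0.71 (S100a8 below the 25th percentile) and −0.48 (barcodes thinned at random to 5000 UMIs before the rule). Of the kept barcodes, 93 in control and 502 in knockout had under 5000 UMIs, and the part of these in the share was not tested. Within the pool the split by S100a8 was alike: 50% of control pool cells were members by construction, and 49.0% of knockout pool cells (45.4 to 52.5).

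Members and S100a8-high cells were set against each other within each library. The rule used this contrast, so the values are a description from which nothing is read. Of 5246 genes measured in both libraries, 57 (1.09%) were at least 1.5-fold higher in members in both libraries and 57 (1.09%) were at least 1.5-fold lower. Among the 12 highest were genes of earlier progenitors. Cd34, a surface protein of stem and progenitor cells, stood at 90.3 CPM in control members against 24.3 in control S100a8-high cells, and at 106 against 22.4 in knockout. Cd27, a receptor of early progenitors, stood at 48.0 against 15.7 CPM in control and 39.3 against 12.1 in knockout. Hoxa9, a homeobox factor of progenitors, had log2 ratios of 1.32 and 1.65, and Irf8, a factor of the monocyte and dendritic lineage, 1.25 and 1.55. Cpa3, Fabp5, S100a10, Adgrg1, H2-Q7, Trf, Muc13 and Ifitm3 completed this group.

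The 12 lowest, besides S100a8 and S100a9, included Fcnb, a ficolin of the granule (8.44 CPM in control members against 103 in S100a8-high cells, and 16.4 against 173 in knockout). Wfdc21 stood at 73.4 against 444 CPM in control and 83.0 against 465 in knockout. Vcam1, an adhesion receptor, had log2 ratios of −1.98 and −1.95, and G0s2, an inhibitor of triglyceride breakdown, −1.60 and −1.58. Igkc, Sema4a, Mgl2, Clec4a2, Mcemp1 and Rflnb were the others, and Igkc is an immunoglobulin chain. In S100a8-high cells 1 barcode held 94.7% of the knockout and 44.0% of the control Igkc UMIs. Without the highest barcode of each set, a setting chosen after seeing the data, the Igkc log2 ratio of members over S100a8-high cells was −3.71 in control and 0.05 (−0.19 to 0.30) in knockout. In the plot of levels by S100a8 bin, the pool was cut at the control quartiles of S100a8, with the members in bins 1 and 2. Cd34 went from 111 to 14.4 CPM from bin 1 to bin 4 in control and from 138 to 15.4 in knockout, while Elane went from 8732 to 15725 and from 7675 to 13524.

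**Figure D1:**
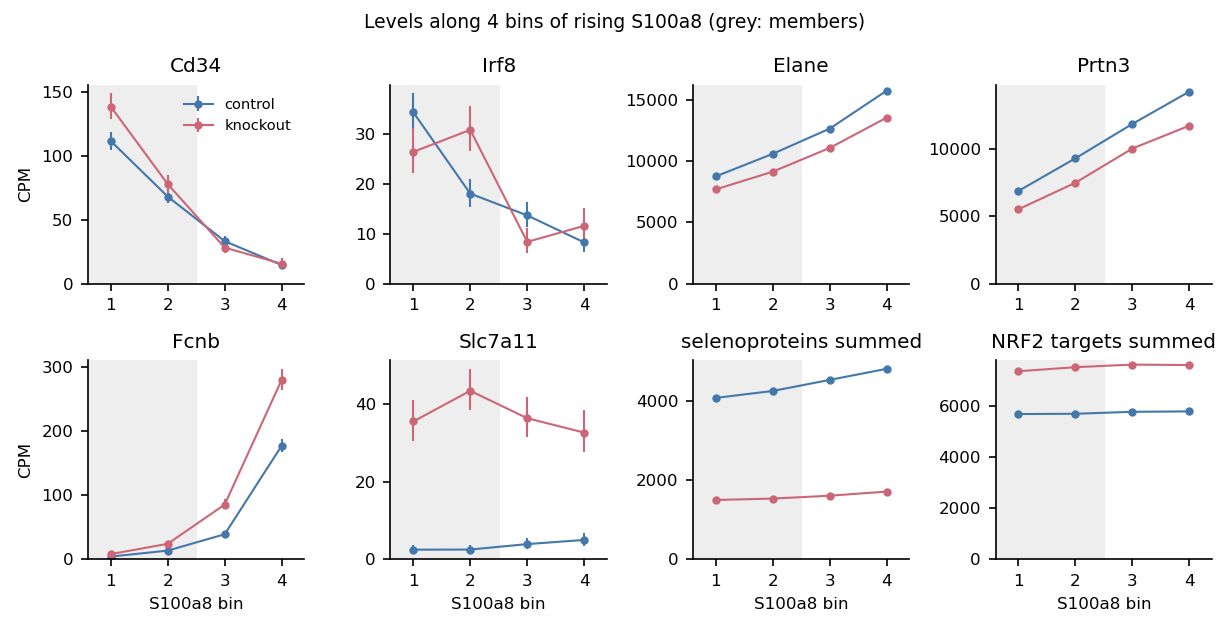
Summed CPM (y axis) of 6 genes and 2 gene lists in 4 bins of rising S100a8 share (x axis, bins at the control quartiles of the pool, members shaded), in control and knockout, with exact Poisson 95% bars that cover counting error only. The summed selenoproteins lie near 4073 to 4808 CPM in control and 1493 to 1706 in knockout in every bin.

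Against all other kept barcodes outside the pool, the members were highest in Prom1, Vcam1, Hsd11b1, G0s2, Clec4a2, B4galt6, Ncam1, Elane, Wfdc21, Gm34084, Cebpe and Rgcc. Hsd11b1, which reactivates glucocorticoids, stood at 43.0 CPM in control members against 5.78 in the others, and at 57.0 against 6.62 in knockout. Rgcc, a regulator of the cell cycle, stood at 454 against 96.3 CPM in control and 357 against 68.2 in knockout. Each of the genes listed here was higher still in the S100a8-high cells of both libraries, so none is particular to the members. In S100a8-high cells Hsd11b1 stood at 68.6 CPM in control and 91.4 in knockout, and Rgcc at 697 and 540. These values too describe cells picked by expression.

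Between genotypes, 5690 genes were measured in the members, with at least 20 CPM in either library and 50 UMIs in all. Of these, 119 (2.09%) were at least 1.5-fold higher in knockout members and 33 (0.58%) were at least 1.5-fold lower. At these shares a short list would hold few or no genes past 1.5-fold. The median log2 ratio of knockout over control over all 5690 was 0.11, so a list near 0.11 sits with the bulk of genes. With scaling by the median ratio, which moves that median to 0, 55 genes were higher and 51 lower.

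**Figure D2:**
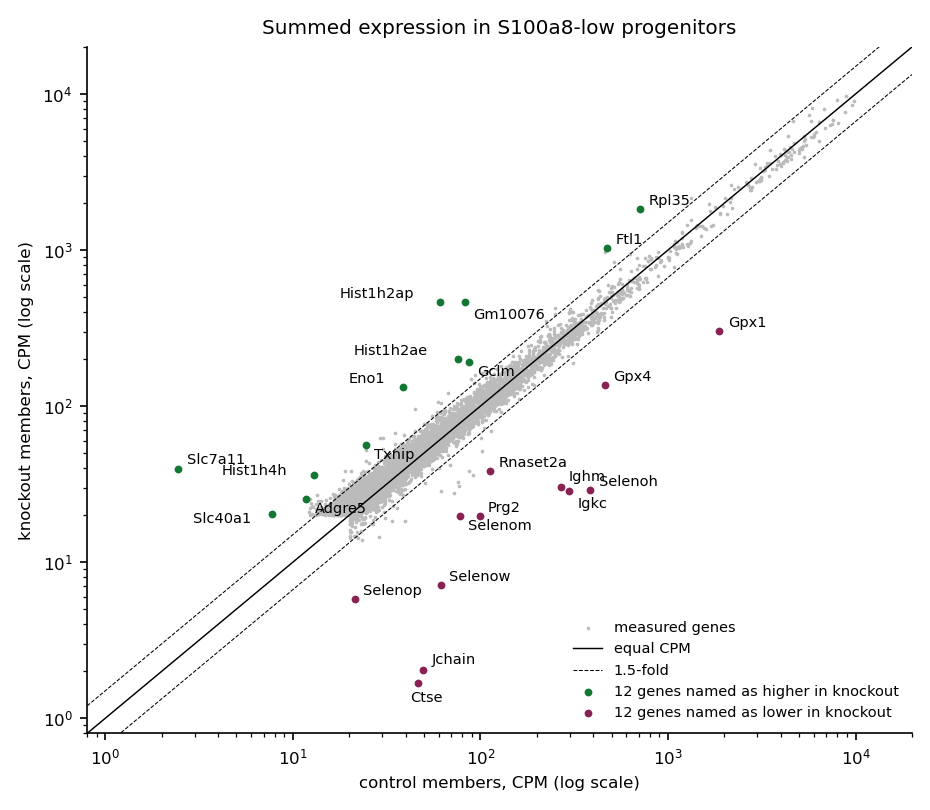
CPM of each of 5690 measured genes in control members (x axis) and knockout members (y axis), both on log scales, 1 point per gene, with the line of equal CPM and lines of 1.5-fold. The 12 genes named as lower lie below the band, with Ctse at 46.6 and 1.67 CPM, and the 12 named as higher lie above it, with Slc7a11 at 2.45 and 39.8 CPM.

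Selenoprotein transcripts were lower in knockout members. Of 24 listed genes, 15 were measured, 8 were at least 1.5-fold lower (0.58% of all measured genes were) and 0 were at least 1.5-fold higher, with a median log2 ratio of −0.72 against 0.11 over all genes. These mRNAs are the nearest check of the genotype, since Trsp itself was not analysed here, and a 3′ library of polyadenylated RNA would not show it.

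Selenoh, a nucleolar redox protein (ENSMUSG00000076437, GRCm38 chromosome 2, 84669215 to 84670770), had 7081 UMIs or 385 CPM (376 to 395) in control members and 328 UMIs or 28.9 CPM (25.8 to 32.2) in knockout members, 13.3-fold lower. Selenow, a small redox protein, stood at 61.7 and 7.14 CPM, 8.64-fold lower. Gpx1, which reduces hydrogen peroxide with glutathione (ENSMUSG00000063856, chromosome 9, 108338903 to 108340343), had 34509 UMIs or 1879 CPM (1859 to 1899) in control and 3435 UMIs or 303 CPM (293 to 313) in knockout, 6.21-fold lower.

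Selenom, an ER protein, had a log2 ratio of −1.97, and Selenop, the secreted selenium carrier, −1.88. Gpx4, which reduces lipid hydroperoxides and restrains ferroptosis, stood at 459 and 136 CPM, a log2 ratio of −1.75 (−1.83 to −1.67). The ER proteins Selenot and Selenof followed at −0.73 and −0.72. These 8 genes are the ones past 1.5-fold, and they span a wide range from Selenoh to Selenof.

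The other measured selenoproteins lay closer to 0. Selenok was at −0.42, Msrb1, a methionine sulfoxide reductase, at −0.36, Txnrd1, the cytosolic thioredoxin reductase and itself an NRF2 target, at −0.17 (−0.31 to −0.03), and Selenos at −0.13. Sephs2, which makes selenophosphate, was at 0.11 (−0.01 to 0.24), Selenoi at 0.35 and Dio2 at 0.42. Below the floor, Gpx3 had 89 and 5 UMIs and Selenon 273 and 93, while no UMI of Dio1, Dio3 or Selenov was counted in either library (0). Also below it, Txnrd3 had a log2 ratio of −0.46, but Selenoo was at 0.42 and Txnrd2 at 0.07. The list of genes that make and use selenocysteine, other than selenoproteins, had 8 measured members with 0 past 1.5-fold in either direction and a median of 0.01.

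The difference in the summed selenoproteins was also present cell by cell. Gpx1 alone made up 1879 of the 4158 CPM of the summed list in control members and 303 of 1512 in knockout members. The sum therefore leans on Gpx1 and does not show each selenoprotein. Members with at least 15711 UMIs were thinned to that number, which kept 724 of 762 control and 372 of 381 knockout members. The thinned selenoprotein sum ran from 35 to 105 UMIs in control, with a median of 65, and from 12 to 46 in knockout, with a median of 23. All 372 knockout members lay below the 5th percentile of control members, 48 UMIs (100%, 99.0 to 100), against 3.87% of control members. Without thinning, 61.9% of knockout and 1.57% of control members had fewer than 48 selenoprotein UMIs. The thinned knockout members all lay under the control median, but the highest, at 46, lay inside the control range. The 9 knockout members too shallow to thin were not compared. Where the members were picked after thinning to 5000 UMIs, 99.2% of knockout members lay below the 5th percentile of control members.

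**Figure D3:**
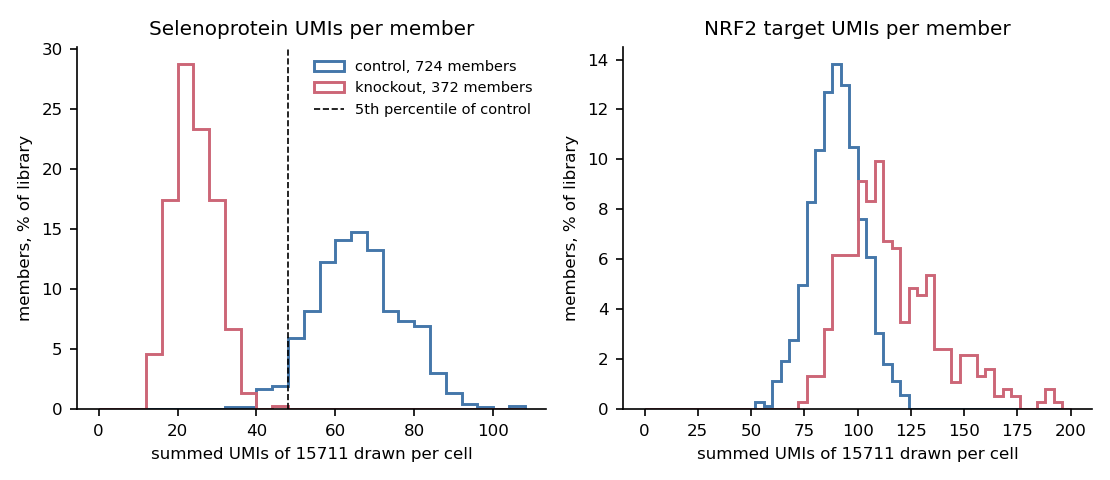
Histograms of the summed selenoprotein UMIs (left) and NRF2 target UMIs (right) per member after thinning each cell to 15711 UMIs, as percent of the 724 control and 372 knockout members, with the 5th percentile of control members as a dashed line on the left. The selenoprotein sums of knockout members, from 12 to 46, all lie left of the line, while the NRF2 sums overlap, with medians of 90 in control and 110 in knockout.

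NRF2 target transcripts were higher. Over 4 lists, 22 of 36 targets were measured, 7 were at least 1.5-fold higher (2.09% of all measured genes were), 0 were at least 1.5-fold lower, and the median was 0.44. In the cystine and glutathione list 5 of 8 measured genes were past 1.5-fold and the median was 0.75. The iron and heme list had 2 of 6 and a median of 0.41, the NADPH list 0 of 4 and 0.28, and the quinone and sulfiredoxin list 0 of 4 and 0.13. With no CPM floor the quinone and sulfiredoxin median was 0.82 and the cystine and glutathione median 0.61, so the order of the lists turned.

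Slc7a11, the cystine importer that feeds glutathione synthesis (ENSMUSG00000027737, chromosome 3, 49892526 to 50443614), had 45 UMIs or 2.45 CPM (1.79 to 3.28) in control members and 452 UMIs or 39.8 CPM (36.2 to 43.7) in knockout members, 16.3-fold higher. Gclm (ENSMUSG00000028124, chromosome 3, 122245557 to 122270732), whose promoter is shown above, stood at 87.2 CPM (83.0 to 91.6) and 193 (185 to 201), 2.21-fold higher. Gclc, the catalytic subunit of the same ligase, was 1.75-fold higher, Abcc1, which exports glutathione conjugates, 1.81-fold, and Gstm1, a glutathione transferase, 1.62-fold. With Elane at the 90th percentile the log2 ratio of Abcc1 was 0.38, under 1.5-fold. Transcripts of the importer Slc7a11 and of both ligase subunits were thus higher, by very different amounts. Slc3a2, another measured gene of the cystine and glutathione list, had a log2 ratio of 0.20.

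In the iron and heme list, Ftl1, the ferritin light chain, stood at 475 and 1026 CPM, 2.16-fold higher, and Blvrb, a biliverdin reductase, at 12.5 and 23.8 CPM, 1.90-fold higher. Blvra, the other biliverdin reductase, was at −0.28 and Fth1, the ferritin heavy chain, at 0.20. A processed copy of Ftl1 is also annotated and could share its reads, so the Ftl1 value is uncertain. Slc40a1, the iron exporter ferroportin, which was not on the list, stood at 7.78 and 20.3 CPM, a log2 ratio of 1.38 (1.07 to 1.69).

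Among the NADPH enzymes G6pdx was at 0.54, Pgd at 0.43, Tkt at 0.14 and Taldo1 at 0.06. Gsr, glutathione reductase, was at 0.49 and Mgst1 at 0.52. Of the 36 targets, 14 were below the expression floor. The interval of the log2 ratio lay above 0 for 8 of these and below 0 for 0, spanned 0 for 5 (Ephx1, Me1, Trim16, Mgst3 and Ggct), and 1 had no UMI. Among the 8, Pir had 8 and 61 UMIs, Osgin1 12 and 58, Nqo1 8 and 31, Hmox1 6 and 20, and Srxn1 38 and 105, and the others were Gsta4, Cbr3 and Gss. Of 14 measured antioxidant enzymes without selenium, 1 was at least 1.5-fold higher, Cat, the hydrogen peroxide-degrading catalase, at 30.3 and 62.8 CPM (log2 ratio 1.05).

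**Figure D4:**
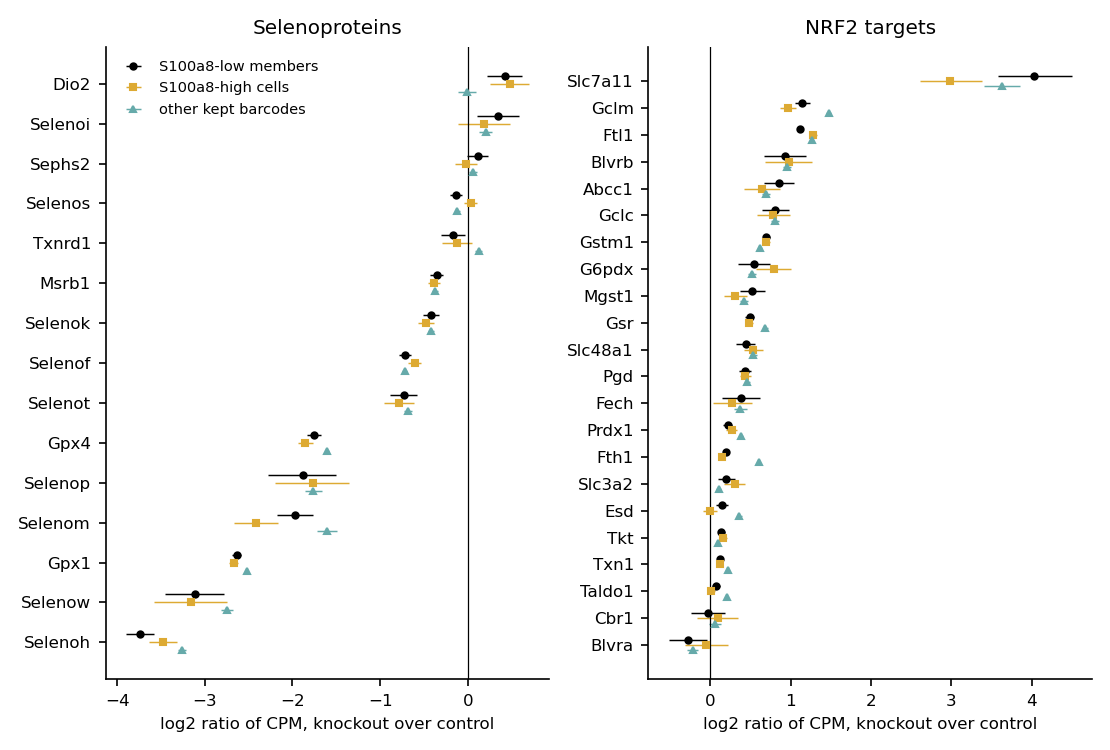
Log2 ratio of CPM, knockout over control (x axis), of the 15 selenoproteins (left) and 22 NRF2 targets (right) measured in members, in members, S100a8-high cells and other kept barcodes, with exact 95% bars that cover counting error only. Selenoh is the lowest selenoprotein in members at −3.74 and Slc7a11 the highest NRF2 target at 4.02.

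NRF2 targets and selenoproteins also differed in how they spread over cells. The thinned NRF2 target sum had a median of 90 UMIs in control members (5th to 95th percentile 70 to 109) and 110 in knockout members (86.5 to 159), so the distributions overlapped, with a longer upper tail in knockout. Slc7a11 gave at least 1 UMI in 3.73% of thinned control (4.59% unthinned) and 25% of thinned knockout members (33.3% unthinned), against 4.35% of control and 0% of knockout lymphoid barcodes unthinned. The 0 of 25 knockout lymphoid barcodes allow a share of up to 13.7% by the exact interval.

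Within knockout members Slc7a11 was unevenly held. After thinning, 279 members had 0 UMIs, 47 had 1, 18 had 2 and 28 had 3 or more, up to 16, and the tenth of members with the most held 69.5% of its UMIs. The thinned knockout members were split by Slc7a11 after these values were seen, as a description along a range and not as cell types, with 47 of the 93 positive cells at the cut of 1 UMI. The 93 positive members had 245 CPM of Gclm (220 to 272) against 168 (156 to 180) in the 279 others. Their other NRF2 targets summed to 7901 CPM against 7109. Of those looked at singly, Gclc, Osgin1 and Ftl1 were also higher in the positive members, with intervals that did not overlap. Values of Gsr, Abcc1, Pir, Srxn1 and G6pdx were higher there too, but their intervals overlapped. Gstm1 (838 and 848 CPM), Mgst1 (53.4 and 55.0), Blvrb (19.8 and 23.7), Hmox1 (1.37 and 2.05) and Nqo1 (3.42 in both) were not higher. Txnrd1, both a selenoprotein and an NRF2 target, stood at 71.9 CPM (58.8 to 87.0) against 50.6 (44.2 to 57.8). Mki67, a proliferation marker, stood at 244 CPM in the positive members against 121 in the others. Gpx1 (298 and 308 CPM), the selenoprotein sum (1519 and 1517) and Elane (8640 and 8540) lay close together in both. The positive members had been deeper before thinning, with a median of 32961 against 28489 UMIs.

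Primary granule genes differed by less than 1.5-fold, as did most measured genes (2.09% were higher and 0.58% lower). All 16 listed genes were measured, 0 were past 1.5-fold in either direction, and the median was −0.08 against 0.11 over all genes. Ctsg, cathepsin G, was lowest at 5343 and 3972 CPM (log2 ratio −0.43), Prtn3, proteinase 3, stood at 8023 and 6548 (−0.29), and Nkg7 was at −0.30. Mpo, myeloperoxidase, went the other way at 8911 and 9680 CPM (0.12), as did Cd63, a granule membrane protein, at 0.24. None of these values passed 1.5-fold. Of 11 measured secondary and later granule genes 0 passed 1.5-fold, with a median of 0.09. The rule set limits on Elane, Camp, Ngp, Ltf and Lcn2 in both libraries, so the granule values in members are partly set by it. Fcnb was below the floor in members and is named for its place among the genes lower in members than in S100a8-high cells. It stood at 8.44 CPM in control members (7.16 to 9.88) and 16.4 in knockout members (14.1 to 18.9), and its log2 ratio was 0.96 in members and 0.74 in S100a8-high cells.

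Of lineage transcription factors most differed by less than 1.5-fold, as did most measured genes (2.09% were higher and 0.58% lower). Of 24 measured, 1 passed 1.5-fold, Bach1, a repressor of NRF2 targets, at 27.3 and 41.8 CPM (0.61), and the median was 0.17. Bach1 was no longer past 1.5-fold with median-of-ratios scaling (0.50), with the mean of each cell's share (0.58) or with Elane at the 90th percentile (0.30). Gfi1, a repressor needed for neutrophil fate, stood at 72.6 and 97.8 CPM (0.43), and Zeb2 and Fli1 were each at 0.50. Cebpa was at −0.09, Cebpe at −0.10 and Spi1 at 0.06, each with the opposite sign in at least 1 alternative, and Lmo4 was at −0.25. Of 16 measured cytokine and chemokine receptors 0 passed 1.5-fold, but the median was 0.30 and 14 lay above the median of all genes. Csf3r, the G-CSF receptor, stood at 49.1 and 69.3 CPM (0.50), Csf2rb at 23.0 and 33.2 (0.53), and Fcgr2b, an inhibitory Fc receptor, at 40.7 and 60.1 (0.56).

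**Figure D5:**
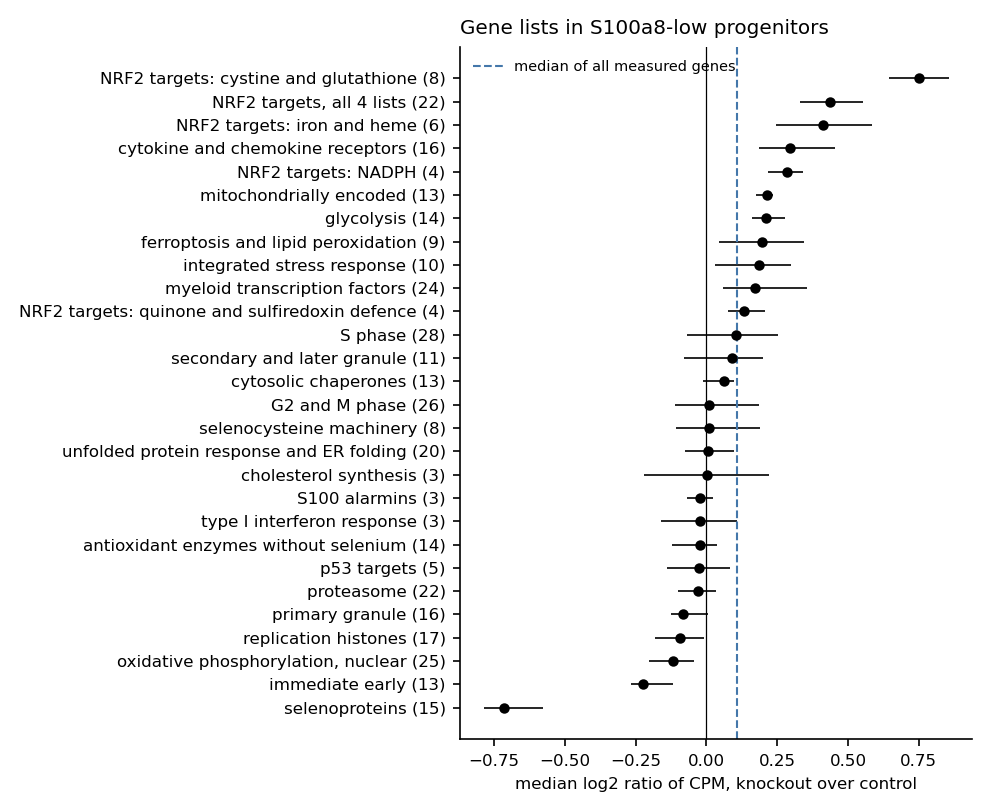
Median log2 ratio of CPM, knockout over control (x axis), over the measured genes of each list with at least 3 of them in the members (number in brackets), with lines from the median of the genes' lower bounds to the median of their upper bounds. The dashed line is the median of all measured genes, 0.11, and the selenoproteins at −0.72 and the cystine and glutathione list at 0.75 lie farthest from it.

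Cell cycle lists stayed with the bulk: S phase had 0 of 28 genes past 1.5-fold (median 0.10) and G2 and M phase 0 of 26 (0.01). Mcm7, a replication licensing factor, was at −0.46, Ube2c, a mitotic ubiquitin-conjugating enzyme, at −0.54 (0.02 in 1 alternative) and Anln at 0.54. Of 17 replication histones, 2 were higher, Hist1h2ap at 60.5 and 462 CPM and Hist1h2ae at 75.9 and 201, with a list median of −0.09. Hist1h4h stood at 12.9 and 35.9 CPM. Histone genes have near-identical copies, so these single-gene values are uncertain.

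The 13 mitochondrially encoded transcripts had a median of 0.21 with 0 past 1.5-fold, and mt-Co1 was at 0.49. Of 25 nuclear oxidative phosphorylation genes 0 passed 1.5-fold and the median was −0.12, with Cycs, cytochrome c, at −0.48. In glycolysis 2 of 14 were higher, Eno1 at 38.4 and 133 CPM and Pfkl at 0.60, and the median was 0.21. Pfkl fell short of 1.5-fold with median-of-ratios scaling (0.49) and in 4 other alternatives. Eno1 shares sequence with Eno1b and is uncertain.

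Stress lists gave few genes past 1.5-fold, as did all measured genes (2.09% higher and 0.58% lower). The integrated stress response had 0 of 10 (median 0.19), the unfolded protein response 0 of 20 (0.01), p53 targets 0 of 5 (−0.03), type I interferon response 0 of 3 (−0.02), S100 alarmins 0 of 3 (−0.02) and cholesterol synthesis 0 of 3 (0.00). The rule capped S100a8 in both libraries, so the S100 value is partly set by it. Cytosolic chaperones had 1 of 13, Ahsa1, an activator of HSP90, at 1.09 (median 0.06), the proteasome 1 of 22, Adrm1, a ubiquitin receptor, at 1.10 (median −0.03), and ferroptosis genes 1 of 9, Slc7a11 again (median 0.20). Immediate early genes had 0 of 13 and a median of −0.22, with Fos at −0.49 and Junb at −0.39. In the list of Txnip and arrestins, 1 of 2 measured genes passed 1.5-fold (median 0.76). This was Txnip, an inhibitor of thioredoxin, at 24.6 and 56.5 CPM, 2.30-fold higher.

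The remaining genes named as highest and lowest fall outside the lists. Ctse, the aspartic protease cathepsin E (ENSMUSG00000004552, chromosome 1, 131638306 to 131675505), was the lowest, with 856 UMIs or 46.6 CPM (43.5 to 49.8) in control members and 19 UMIs or 1.67 CPM (1.01 to 2.61) in knockout members, 27.8-fold lower. It gave a UMI in 50.7% of thinned control (61.5% unthinned) and 2.15% of thinned knockout members (4.99% unthinned), against 43.5% and 24.0% of lymphoid barcodes unthinned, in which it stood at 30.01 and 15.7 CPM. No control member had more than 9 Ctse UMIs. Adgre5, an adhesion receptor, was 2.16-fold higher. Rpl35 (712 and 1838 CPM), Gm10076 (82.7 and 464) and Rnaset2a (113 and 38.5) have near-identical copies elsewhere in the genome and are uncertain.

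The differences in immunoglobulin and eosinophil genes rested largely on single barcodes. Igkc stood at 296 and 28.5 CPM, but 4772 of 5438 control UMIs, or 87.8%, came from 1 barcode, which also held 87.5% of Ighm and 93.9% of Jchain UMIs. That barcode had 39960 UMIs, 5515 genes and a doublet score of 0.389, under the threshold of 0.426. Without the highest barcode of each library the log2 ratio was −0.48 (−0.68 to −0.28) for Igkc in place of −3.37, −0.25 (−0.45 to −0.05) for Ighm in place of −3.15 and −0.70 (−1.50 to 0.05) for Jchain in place of −4.61. Prg2, an eosinophil granule protein, had 77.5% of its control UMIs in another barcode, and its ratio went from −2.33 to −0.49 (−0.75 to −0.23). B cell and plasma cell markers summed to 83.6 CPM in control and 30.3 in knockout members, with Ms4a1 at 0 in both, and eosinophil markers to 115 and 28.9. The other 20 genes named for genotype had log2 ratios at most 0.07 away from the values with all barcodes when their highest barcodes were left out, and Ctse went from −4.80 to −4.86.

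The S100a8-high cells gave like values. Of 5295 genes measured in both sets, 0 were at least 1.5-fold higher in one and at least 1.5-fold lower in the other, a count with no test. Only 2.09% of genes measured in members were higher and 0.58% lower, so few could be opposite. The count by itself shows no likeness. The selenoprotein median was −0.72 in members, −0.70 in S100a8-high cells and −0.70 in kept barcodes outside the pool, and the NRF2 target median 0.44, 0.37 and 0.46. By S100a8 bin, the log2 ratio of summed selenoproteins was −1.45, −1.47, −1.50 and −1.50 from bin 1 to bin 4, and that of summed NRF2 targets lay between 0.37 and 0.40. Slc7a11 had ratios of 3.87, 4.14, 3.23 and 2.72 in these bins, over control levels of 2.43, 2.47, 3.87 and 4.95 CPM. Elane lay between −0.21 and −0.22 in bins 2 and 4 and at −0.19 in bins 1 and 3. The differences between bins and between cell sets were not tested.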

How the data were processed

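Raw UMI counts per gene and barcode were deposited by the authors for 32285 genes in each of 2 libraries. Per the labels' protocols they came from 10x Chromium 3′ v3.1 libraries, and per the submitters' processing notes from Cell Ranger 6.1.2 with the mm10 genome. The sources used here do not give the annotation release, how cells were called or whether strand was used, and 3′ reads may split genes that differ little near their ends. No deposited barcode had fewer than 500 UMIs. Summed UMIs of the kept barcodes were 170465846 in control and 140113016 in knockout, and of the members 18369677 and 11350373.

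The members and gene lists were chosen with earlier results of these data known. UMIs were summed per gene over the members of a library and divided by their total to give CPM. Levels have exact Poisson intervals, shares exact binomial (Clopper-Pearson) intervals, and ratios exact conditional binomial intervals, and the log2 ratio of member shares a normal approximation. No test was made. A gene was measured at 20 CPM or more in 1 library and 50 UMIs over both. Named genes were the rule's genes and the 4 markers, all measured selenoproteins, up to 12 highest and 12 lowest of those at least 1.5-fold apart with an interval excluding 0, up to 4 genes per list by size of the log2 ratio, and up to 12 each way for members against S100a8-high cells. Lists also name genes by which they are described. Scrublet (scanpy 1.11.5, expected rate 10%) used the automatic control threshold of 0.426 for both libraries, and marked 1.74% of kept control and 1.09% of kept knockout barcodes. Lymphoid barcodes had at least 10 UMIs of 11 B, T or NK markers, no Dntt or Ebf1, and no predicted doublet. Coordinates are from the GENCODE annotation of GRCm38, the assembly of mm10. The ratio script was tested on simulated data.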

Additional observations from a re-analysis of the deposited data

How the results depend on the processing

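With 1 library per genotype, all differences may belong to these libraries or mice, and shallow genes are limited by counting error. No paired analysis was possible because each genotype has 1 library. In 13 alternatives, 1 of them (each gene without its highest barcode) chosen after seeing the data, the 8 main results stayed within their interval, or for a count of genes within 1.5 times, in 72 of 87 values. With Elane at the 90th percentile the log2 ratio of member shares was −1.57, the share of knockout pool cells below the S100a8 median 39.4%, the selenoprotein median −0.53, and 289 genes were higher and 68 lower. Median-of-ratios scaling, a shift of 0.11, gave 55 higher and 51 lower genes, and medians of −0.82 for selenoproteins, 0.33 for NRF2 targets and −0.19 for primary granule genes. A floor of 50 CPM and 100 UMIs left 39 higher and 21 lower genes, and no CPM floor gave 1184 and 567, since more or fewer genes were counted. Thinning to 5000 UMIs before the rule gave a selenoprotein median of −0.58, with 492 control and 248 knockout members. Of 49 named genes past 1.5-fold, 38 stayed past it in all alternatives and 11 did not: Abcc1, Bach1, Cbr3, Csf1r, Gsta4, Ighm, Igkc, Jchain, Klf4, Pfkl and Prg2. Cbr3, below the floor, turned from 0.82 to −1.60 with Elane at the 90th percentile and to −0.072 with S100a8 below the 25th percentile. Of 160 genes followed, 39 changed sign in some setting, Cbr3 and 38 under 1.5-fold, among them Cebpa, Cebpe, Cd34 and Irf8. The sign of list medians turned in some setting for S phase, G2 and M phase, secondary granule, antioxidant, chaperone, interferon, p53, cholesterol, selenocysteine machinery, and both stress response lists. Except where a value or construction is named, the cause was not tested.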
